A study of Mus musculus with 22 samples.

Results

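Livers of mice fed a methionine- and choline-deficient (MCD) diet and given DTMB were set against livers of mice on normal diet given vehicle. The comparison used 7 of the 22 libraries of the series, chosen by their labels: 3 MCD DTMB and 4 normal-diet libraries, all from the cohort labelled MCD. All donors were wild-type male C57BL/6J mice. DTMB, a compound known here by its code name, was given orally, 10 mg/kg daily, on the MCD diet, which the labels use as the steatohepatitis model. The 4 MCD vehicle libraries of the same cohort, from mice on the MCD diet without DTMB, were fitted with them and are given beside them. In the other cohort, 4 livers from mice on a high-fat diet (HFD) with DTMB and 3 normal-diet vehicle livers served for 1 test of a difference between cohorts. The question was which features of the diet-induced state were present in treated livers. MCD DTMB and normal-diet mice differed in both diet and compound, and no normal-diet group with DTMB was analysed here, so the shares of diet and compound in this difference cannot be told apart by this comparison alone. The sources used here do not give age, feeding time or treatment time, and the results hold for 1 sex and 1 strain.

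Hepatocytes need choline, or methyl groups from methionine, to make phosphatidylcholine, the main phospholipid of the lipoprotein particles that carry triglyceride out of the liver. Without them fat is held in the cell, and the MCD diet is a standard way to bring about fatty liver with hepatocyte injury, inflammation and scarring in mice, which also lose weight on it. In such livers, monocyte-derived macrophages take up lipid and cell debris, and stellate cells, the vitamin A-storing pericytes of the liver, can turn into collagen-making cells. Whole liver RNA was measured, so that fewer cells of a type and less RNA per cell cannot be told apart.

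The MCD DTMB libraries held 50078966, 64104546 and 56010589 counts, the MCD vehicle libraries 62332415 to 66727450 and the normal-diet libraries 55097702 to 61500141. Levels are given in CPM, the counts scaled to a common library size with TMM factors. The scaling mattered because major urinary proteins (Mup), pheromone carriers made by male hepatocytes, took 0.631, 0.309 and 0.471% of all counts in MCD DTMB livers, against 4.53, 11.3, 12.4 and 19.5% in normal-diet livers. Changes are relative to that scale and are log2 fold changes with their SE, MCD DTMB over normal diet unless another pair is named. Scaled by library size alone, the median log2 fold change of all genes was 0.373, against 0.0080 on the TMM scale. Albumin (Alb), the defining hepatocyte marker, had 65354, 76412 and 71066 CPM in MCD DTMB livers, against 74525, 82492, 65036 and 52597 CPM in normal-diet livers. Normal-diet replicate 4 held pancreatic transcripts, and normal-diet replicate 1 had the highest collagen and the lowest Mup levels of its group.

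MCD DTMB livers differed widely from normal-diet livers. Of 16037 genes tested, 5230 passed an adjusted p of 0.05 in edgeR's quasi-likelihood test (32.6%), 2595 of them higher in MCD DTMB livers (16.2%) and 2635 lower (16.4%). At least 2-fold changes made up 1394 of the rises and 1016 of the falls, and at least 8-fold changes 319 and 196. Scaled by library size alone, 5803 genes were higher and 1097 lower. MCD vehicle livers, set against the same normal-diet livers, gave 6626 called genes (41.3%), 3253 higher (20.3%) and 3373 lower (21.0%). Both comparisons share the normal-diet libraries, and their values for the gene groups are therefore given side by side without a test of their likeness. Libraries of MCD DTMB and normal diet often did not overlap (MCD DTMB above in 21.7% of genes and below in 22.4%), and those of MCD DTMB and MCD vehicle seldom (above in 2.59% and below in 3.27%). The shares against MCD vehicle are about what 3 and 4 libraries give with no difference between their groups. Tested directly, MCD DTMB and MCD vehicle livers differed in 1 gene (0.00624% of those tested), with 857 genes at an unadjusted p under 0.05, near the 0.05 share of tests that such a threshold passes with no difference, and 13 called by DESeq2. That gene, LOC108168464, a predicted locus named here because it was the one called, had 0.425, 0.848 and 0.503 CPM in MCD DTMB livers, against 0.0522, 0.0528, 0.0264 and 0.0312 CPM in MCD vehicle livers. Its log2 fold change was 3.79 ± 0.45 (SE, edgeR adjusted p = 0.0369), and with any 1 library left out no gene was called. With the filter that asks for a CPM above 1 in 3 libraries none was called either. That filter says little about this gene, which was under 1 CPM in all MCD DTMB and MCD vehicle libraries. Genes at an unadjusted p under 0.05 numbered 424 without MCD DTMB replicate 3 and 1372 without MCD vehicle replicate 1. The plot of members called per gene list gives the shares for both comparisons with normal diet.

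**Figure D1:**
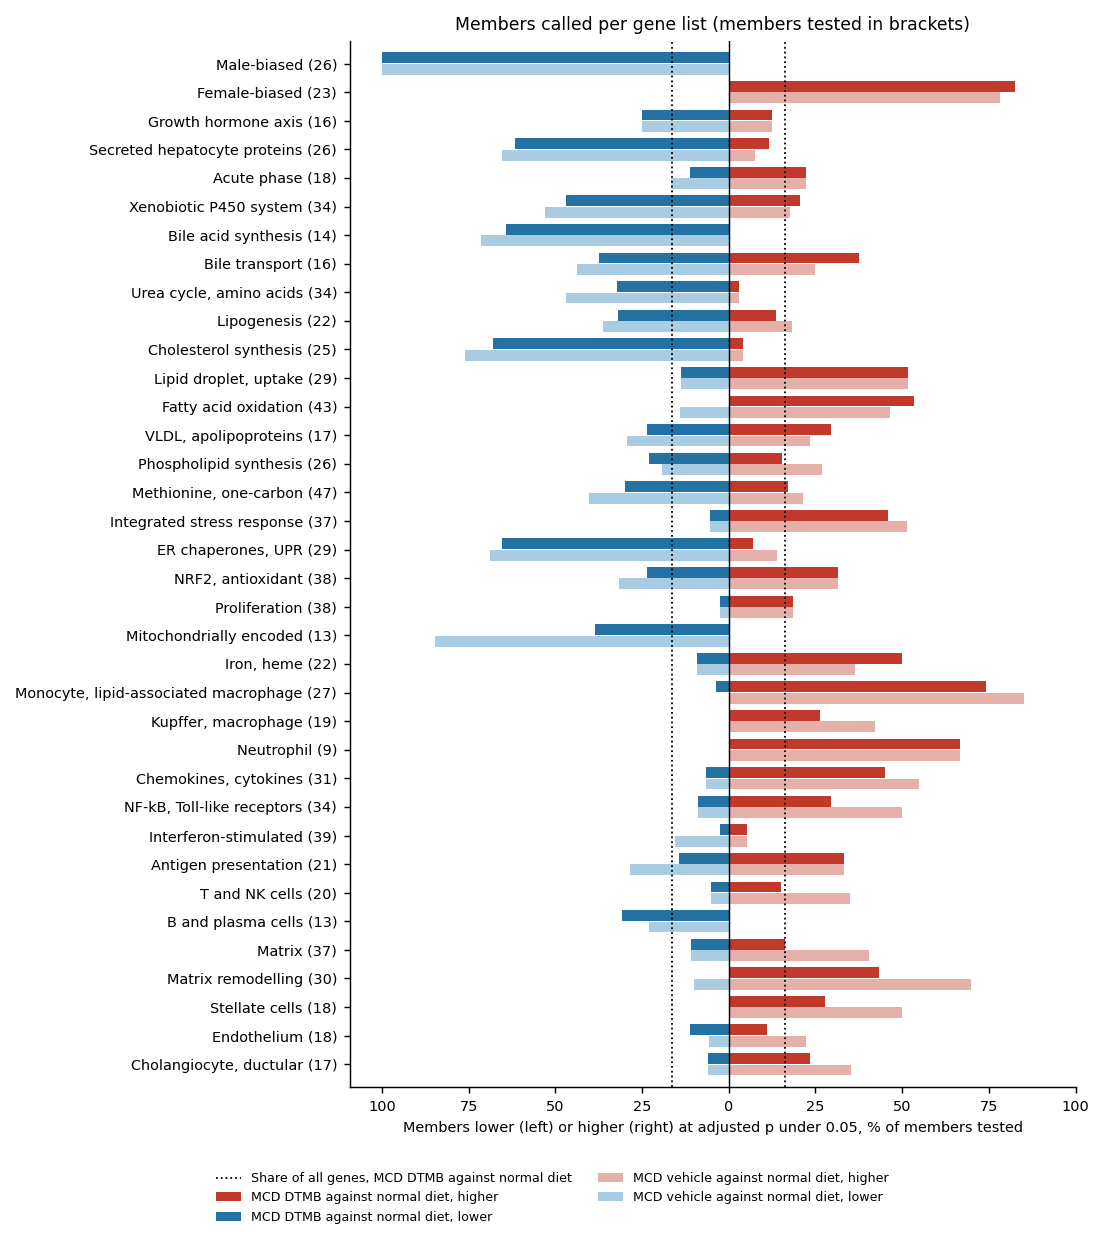
Share of each gene list's tested members that were higher (right) or lower (left) at an edgeR adjusted p under 0.05, in % on the horizontal axis, for MCD DTMB (dark bars, n = 3) and MCD vehicle livers (pale bars, n = 4), each against the same normal-diet livers (n = 4). Dotted lines mark the shares over all genes for MCD DTMB, 16.2% higher and 16.4% lower. The male-biased list is at the left edge in both comparisons, and the matrix list reaches the line of all genes with DTMB.

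Male-typical genes fell and female-typical genes rose in MCD DTMB livers. Pulses of growth hormone acting through its receptor and STAT5B keep male-typical genes on and female-typical genes off in male mouse hepatocytes. Of 26 male-biased genes, 0 rose and 26 fell, with a median log2 fold change of -4.77. Of 23 tested female-biased genes, 19 rose and 0 fell, with a median of 3.04, the same to 2 decimals with the genes at 0 counts set to their bound. MCD vehicle livers had 26 of these male-biased genes lower (median -4.89) and 18 of the female-biased genes higher (median 3.32). The male-biased list summed to 2860.5 to 4172 CPM in MCD DTMB livers, 2901 to 4525 CPM in MCD vehicle livers and 45615 to 137830.0 CPM in normal-diet livers.

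Mup7 (gene ID 100041658, chromosome 4, 60066469 to 60070475 on the GRCm38.p6 build, which the positions here refer to), a major urinary protein, had 226, 119 and 187 CPM in MCD DTMB livers and 89.05, 102, 186 and 259 CPM in MCD vehicle livers, against 4110.3, 21592, 19505 and 38210.0 CPM in normal-diet livers. The steroid dehydrogenase gene Hsd3b5 (gene ID 15496, chromosome 3, 98618636 to 98645534), of male-typical expression, had 0, 0.176 and 0.218 CPM in MCD DTMB livers and 0.183, 0, 0.106 and 0.296 CPM in MCD vehicle livers, against 86.8, 156, 179 and 349.9 CPM in normal-diet livers. The MCD DTMB libraries lay below the lowest normal-diet library by a wide margin for both genes and within or near the MCD vehicle range. The log2 fold changes were -6.88 ± 0.78 (SE, edgeR adjusted p = 6.26e-05) for Mup7 and -10.45 ± 0.83 (SE, edgeR adjusted p = 5.22e-06) for Hsd3b5, and reads shared between near-identical copies make single members of the Mup, Hsd3b, Cyp2, Cyp4a, Sult2a and Serpina families uncertain. C8b, a subunit of complement component C8, fell by the same test (-3.66 ± 0.26 on the log2 scale), as did C6, another terminal complement component (-4.14 ± 0.22), and the selenium-binding protein gene Selenbp2 (-5.203 ± 0.36). Mup5, with 0 counts over the MCD DTMB libraries and 6289 over the normal-diet libraries, was at least 1944-fold lower, taking a summed floor of 3 counts for MCD DTMB, a bound that covers counting error only.

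In the female-typical direction, Sult1e1 (gene ID 20860, chromosome 5, 87575968 to 87591611), the estrogen sulfotransferase, had 424, 299.7 and 361 CPM in MCD DTMB livers and 175, 372, 331 and 414 CPM in MCD vehicle livers, against 0.03699, 0.1805, 0 and 0 CPM in normal-diet livers. It was above 250 CPM in each MCD DTMB library and close to 0 in each normal-diet library, with a log2 fold change of 12.73 ± 0.57 (SE, edgeR adjusted p = 2.93e-07). Cyp2b9 and Cyp2a4, cytochrome P450 genes of female-typical expression, rose by 9.63 ± 0.66 and 6.56 ± 0.39 (both SE). Cyp2b13 and Sult2a3, from families of near-identical copies, had 0 counts in normal-diet livers and were at least 786-fold and 776-fold higher by the same floor. Of 16 genes of the growth hormone axis 2 rose and 4 fell, against 16.2% and 16.4% over all genes. The growth hormone receptor Ghr had 172, 186 and 185 CPM in MCD DTMB livers and 167, 132, 145 and 170.3 CPM in MCD vehicle livers, against 436, 487, 545 and 609.6 CPM in normal-diet livers, a log2 fold change of -1.52 ± 0.14 (SE, edgeR adjusted p = 1.58e-05). Stat5b fell (-0.72 ± 0.12), as did its target Igf1, the circulating growth factor (-0.96 ± 0.17), while Cux2, a repressor of male-typical genes, rose (4.399 ± 0.59).

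**Figure D2:**
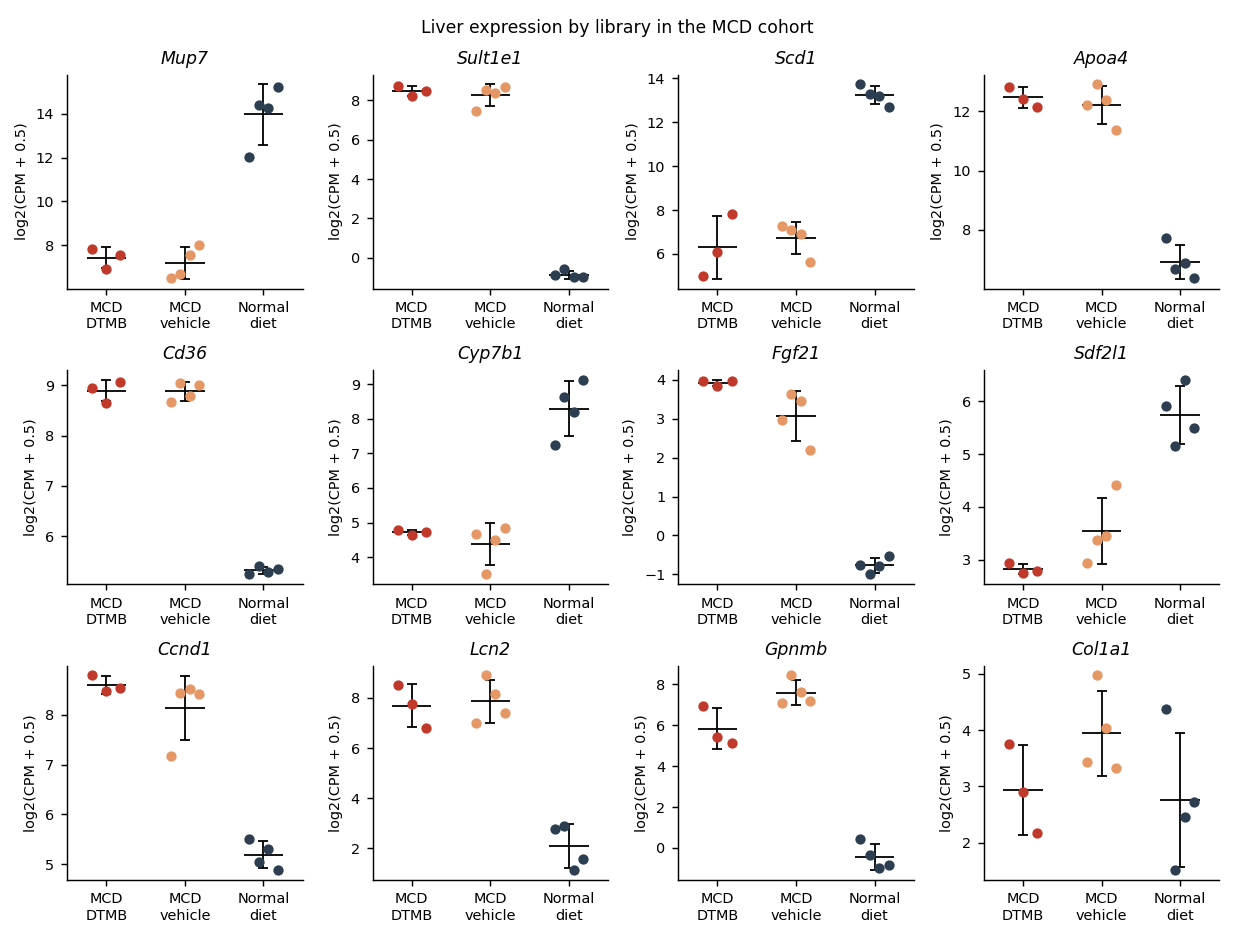
Expression of 12 genes in each library of the MCD cohort, as log2(CPM + 0.5) on the vertical axis, with MCD DTMB (n = 3), MCD vehicle (n = 4) and normal-diet livers (n = 4) from left to right; points are libraries, bars the mean and whiskers the SD. For Col1a1 the MCD DTMB and normal-diet points overlap, and for the other 11 genes they do not.

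Many of the genes of largest change had no count in 1 of the groups. Vmn2r3 (gene ID 637004, chromosome 3, 64258961 to 64287426), a gene of the vomeronasal receptor family, had 25.5, 34.1 and 55.9 CPM in MCD DTMB livers and 66.1, 29.1, 49.4 and 31.5 CPM in MCD vehicle livers, against 0 counts in each normal-diet liver. It was at least 2530.0-fold higher in MCD DTMB than in normal-diet livers by the floor of 3 counts. The acyl-CoA thioesterase gene Acot5 and the membrane serine protease gene Tmprss7, at mean levels of 1.796 and 2.46 CPM in MCD DTMB livers, also had 0 counts in normal-diet livers. Among the largest falls, Cyp2c54, a P450 with near-identical neighbours, had 1.22, 3.74 and 1.21 CPM in MCD DTMB livers and 1.59, 0.977, 1.33 and 6.42 CPM in MCD vehicle livers, against 109, 449.7, 317 and 373 CPM in normal-diet livers. Lrit2, a leucine-rich repeat membrane protein gene, Serpina9, a serpin, and Cspg5, a proteoglycan, had 0 counts in MCD DTMB livers and 1011, 276 and 254 counts over the 4 normal-diet livers. In absolute level the largest rises included those of Ahsg (fetuin-A), Apoa4 and Selenop, and the largest falls were those of Mup7, Mup22, Mup11 and Serpina3k. Ahsg averaged 15985 ± 1547 CPM in MCD DTMB livers (SD, n = 3), against 10120.4 ± 1112 CPM in normal-diet livers (SD, n = 4), and Serpina3k 1337 ± 65.99 CPM in MCD DTMB livers (SD, n = 3), against 12432 ± 2353 CPM in normal-diet livers (SD, n = 4).

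Lists of other hepatocyte functions had more members that fell than rose. Of 26 secreted plasma protein genes 3 rose and 16 fell (median -0.73), 7 rising by library size alone, and in MCD vehicle livers 2 were higher and 17 lower (median -0.82). The antitrypsin gene Serpina1c fell (-2.06 ± 0.20), as did Itih1, which links to hyaluronan (-1.65 ± 0.16), while its relative Itih3 rose (0.77 ± 0.17). Of 34 tested genes of the xenobiotic P450 system, 7 rose and 16 fell, against 16.2% and 16.4% over all genes, with 4 rising without MCD DTMB replicate 2. Cyp2j5 fell (-1.76 ± 0.18) and Cyp2c67 fell (-3.49 ± 0.26), whereas Por, the reductase that passes electrons to these enzymes, rose (1.69 ± 0.203) and Cyp2a22 rose (6.03 ± 0.32). Urea cycle and amino acid genes had 11 of 34 members lower and 1 higher, and by library size alone 7 rose and 5 fell. The falls numbered 6 without MCD DTMB replicate 2 or 3, and 7 without normal-diet replicate 1 or with the replicate block, and the rises ranged from 0 to 2 with a library left out. Otc, the ornithine transcarbamylase of the urea cycle, had 219, 149.8 and 215 CPM in MCD DTMB livers, against 688, 757, 665 and 727 CPM in normal-diet livers. The log2 fold change of Otc was -1.86 ± 0.16 (SE, edgeR adjusted p = 9.97e-06). Haao, an enzyme of tryptophan breakdown, fell by 2.04 ± 0.17 on the log2 scale (SE).

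Bile acid genes were lower in MCD DTMB livers. Of 14 genes of bile acid synthesis and its control, 0 rose and 9 fell (median -0.86), or 1 up and 5 down by library size alone, and in MCD vehicle livers 10 were lower (median -1.09). Cyp7b1, the oxysterol hydroxylase of the alternative pathway, had 26.95, 24.5 and 26.2 CPM in MCD DTMB livers and 25.04, 10.8, 21.9 and 28.1 CPM in MCD vehicle livers, against 149.6, 391.97, 293 and 556 CPM in normal-diet livers. Each MCD DTMB liver was below each normal-diet liver, with a log2 fold change of -3.75 ± 0.44 (SE, edgeR adjusted p = 8.04e-05). Cyp27a1, the sterol hydroxylase that opens that pathway, fell (-1.83 ± 0.21), as did Slc27a5, which activates bile acids (-1.86 ± 0.17), and Baat, which joins them to amino acids (-1.16 ± 0.16). Of 16 tested transporter genes 6 rose and 6 fell. Abcb11, the bile salt export pump, had 379, 262 and 317 CPM in MCD DTMB livers, against 861, 1009, 919.6 and 795 CPM in normal-diet livers, and Slc10a1, the main uptake carrier, fell by 1.67 ± 0.27 on the log2 scale. Slco1a1, an organic anion carrier of male-typical level, fell by 7.01 ± 0.67, and the drug exporter Abcb1a rose by 3.41 ± 0.27.

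Lipid genes moved in several directions. Scd1 (gene ID 20249, chromosome 19, 44394450 to 44407709), the desaturase that makes oleic acid, had 31.1, 67.2 and 227 CPM in MCD DTMB livers and 154, 136, 119.8 and 49.4 CPM in MCD vehicle livers, against 13568, 10024, 9513 and 6640.2 CPM in normal-diet livers. The 3 MCD DTMB livers differed among themselves by several fold, with replicate 3 the highest, and all were far below the normal-diet livers (log2 fold change -6.52 ± 0.74, SE, edgeR adjusted p = 6.6e-05). Fads2, the desaturase of polyunsaturated fatty acids, had 2752, 2638 and 2612 CPM in MCD DTMB livers and 1769, 2024, 2172 and 1867 CPM in MCD vehicle livers, against 754, 630.0, 593 and 749 CPM in normal-diet livers, and rose by 1.97 ± 0.13 (SE, edgeR adjusted p = 2.15e-06). Fads1, which acts after it, rose by 1.12 ± 0.15, and Pgd, which makes NADPH, by 1.397 ± 0.21. In the lipogenesis list as a whole 3 of 22 genes rose and 7 fell, against 16.2% and 16.4% over all genes. Scaled by library size alone, 8 rose and 6 fell. DESeq2 gave 6 higher, and leaving out normal-diet replicate 2 gave 5. The list has Fads1 and Fads2, which desaturate dietary fatty acids, beside the genes of fat synthesis.

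Cholesterol synthesis genes fell in MCD DTMB livers. Of 25 members 1 rose and 17 fell, with a median of -0.88, against 1 higher and 19 lower and a median of -1.15 for MCD vehicle livers. By library size alone 1 rose and 12 fell in MCD DTMB livers. Tm7sf2, a sterol reductase, had 24.7, 23.8 and 30.5 CPM in MCD DTMB livers and 16.4, 20.1, 19.6 and 30.2 CPM in MCD vehicle livers, against 136, 175, 144 and 170.3 CPM in normal-diet livers. The MCD DTMB and MCD vehicle ranges overlapped, and both lay below the normal-diet range (log2 fold change of MCD DTMB -2.57 ± 0.204, SE, edgeR adjusted p = 5.22e-06). Ebp, the sterol isomerase, fell (-1.27 ± 0.16), as did Mvd, which makes the isoprene unit (-1.39 ± 0.19), and Sc5d, a sterol desaturase (-0.88 ± 0.13).

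More genes of fatty acid burning and of lipid storage rose than fell. Of 43 fatty acid oxidation genes and PPARalpha targets, 23 rose and 0 fell in MCD DTMB livers (median 0.61), with 35 higher by library size alone. In the fit of the 2 groups alone or without MCD vehicle replicate 4, 3 fell. In MCD vehicle livers 20 were higher and 6 lower (median 0.42). Cyp4a14, a fatty acid omega-hydroxylase of a family of near-identical copies, had 2376, 3665 and 3601 CPM in MCD DTMB livers and 3177, 2099.7, 2024 and 3482 CPM in MCD vehicle livers, against 167, 229.8, 346 and 108 CPM in normal-diet livers, a log2 fold change of 3.92 ± 0.37 (SE, edgeR adjusted p = 1.82e-05) against normal diet. Its neighbour Cyp4a31 rose by 4.65 ± 0.32 and the peroxisomal thioesterase Acot4 by 3.04 ± 0.22. Among ketone body genes 4 of 7 rose and 0 fell, with Bdh1, the last enzyme of ketone synthesis, up by 1.06 ± 0.11 and the monocarboxylate carrier Slc16a6 by 1.29 ± 0.26. Of 29 tested lipid droplet and uptake genes 15 rose and 4 fell (median 0.62), and in MCD vehicle livers 15 and 4 (median 0.47). The summed level of that list was not raised. It was 6020 to 6972 CPM in MCD DTMB livers, 4803.5 to 5503 CPM in MCD vehicle livers and 4923 to 7712 CPM in normal-diet livers. Cd36, the fatty acid translocase that hepatocytes and macrophages both carry, had 495, 403 and 539 CPM in MCD DTMB livers and 405, 528, 441 and 516 CPM in MCD vehicle livers, against 37.4, 41.8, 38.9 and 40.2 CPM in normal-diet livers. The libraries of each group lay within a narrow band, and the log2 fold change was 3.596 ± 0.14 (SE, edgeR adjusted p = 1.01e-07). The droplet coat genes Plin2 and Plin5 rose by 2.17 ± 0.19 and 1.96 ± 0.16. Plin5 had 121, 146 and 130.3 CPM in MCD DTMB livers, against 93.3, 88.99, 100.1 and 69.7 CPM in MCD vehicle livers, ranges that did not overlap, but the direct test did not call it (log2 fold change 0.59 ± 0.16, SE, edgeR adjusted p = 0.919).

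Of 17 lipoprotein genes 5 rose and 4 fell, and by library size alone 9 rose and 3 fell. Apoa4, an apolipoprotein of triglyceride-rich particles, had 7337, 5473 and 4579 CPM in MCD DTMB livers and 4805, 7752, 5336 and 2672 CPM in MCD vehicle livers, against 211, 102, 117 and 82.4 CPM in normal-diet livers. The MCD DTMB livers stood far above the normal-diet livers and amid the MCD vehicle livers, with a log2 fold change of 5.499 ± 0.41 (SE, edgeR adjusted p = 3.95e-06) against normal diet. Apoc2, the cofactor of lipoprotein lipase, rose by 1.56 ± 0.19, while Apoc1 fell (-0.998 ± 0.14), as did the carboxylesterase gene Ces3a, whose product mobilises stored triglyceride (-2.74 ± 0.18).

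The pathways that the diet starves are those of phosphatidylcholine and of methionine. Of 26 genes of phosphatidylcholine and phosphatidylethanolamine synthesis, 4 rose and 6 fell, near the 16.2% and 16.4% of all genes. By library size alone 12 rose and 2 fell, DESeq2 had 7 higher, the fit of the 2 groups alone 8 and the fit without MCD vehicle replicate 4 7. Slc44a1, a choline carrier, had 20.7, 24.5 and 20.1 CPM in MCD DTMB livers and 21.99, 21.7, 19.6 and 26.4 CPM in MCD vehicle livers, against 50.9, 42.7, 39.9 and 38.6 CPM in normal-diet livers, and fell by 0.98 ± 0.14 (SE, edgeR adjusted p = 0.000238) on the log2 scale. Aldh7a1, an aldehyde dehydrogenase of the last step from choline to betaine, fell by 1.53 ± 0.15. Lpcat3, which puts polyunsaturated chains into phosphatidylcholine, rose by 1.03 ± 0.16 and Ptdss2, a phosphatidylserine synthase, by 0.85 ± 0.13. Methionine, folate and one-carbon genes had 8 of 47 higher, near the share of all genes, and 14 lower, but by library size alone 15 rose and 10 fell. MCD vehicle livers had 10 higher and 19 lower. Pipox, which breaks down sarcosine, had 38.5, 46.2 and 46.2 CPM in MCD DTMB livers and 42.00, 31.8, 40.3 and 76.00 CPM in MCD vehicle livers, against 249, 296, 281 and 267 CPM in normal-diet livers. The MCD DTMB range lay below the normal-diet range (log2 fold change -2.65 ± 0.26, SE, edgeR adjusted p = 2.27e-05). Ethe1, of sulfide disposal, fell (-1.47 ± 0.19), as did Gamt, which uses methyl groups to make creatine (-1.12 ± 0.14). Gss, which closes glutathione synthesis, rose by 0.98 ± 0.102.

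Stress genes split into a risen and a fallen arm. When amino acids run short or proteins misfold, kinases of the integrated stress response slow translation and raise ATF4, which turns on amino acid synthesis and transport genes, while ATF6 and XBP1 turn on chaperones of the endoplasmic reticulum (ER). In MCD DTMB livers 17 of 37 tested integrated stress response genes rose and 2 fell (median 0.68), and 2 of 29 ER chaperone and unfolded protein response genes rose and 19 fell (median -0.72). Without MCD DTMB replicate 2 the fallen ER genes numbered 12, DESeq2 had 4 rising, and by library size alone 6 rose and 11 fell. The fallen stress response genes numbered 4 by DESeq2 or without normal-diet replicate 2, and 1 by library size alone. MCD vehicle livers gave 19 higher and 2 lower for the first list (median 0.83) and 4 and 20 for the second (median -0.67).

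The promoters of these lists hold different stress elements. They were searched on both strands, 250 bases before to 50 after the start, in RefSeq windows of the GRCm38.p6 build that matched 32 of 38 and 25 of 29 genes on the lists. TGATGNAA, the C/EBP-ATF response element read by ATF4 with a C/EBP partner, was in 11 of the 32 stress response genes (34.4%), in 1 of the 25 ER genes (4.0%) and in 1219 of 27025 genes with a promoter (4.51%). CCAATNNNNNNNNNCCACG, the ER stress response element read by ATF6 with NF-Y, was in 0 of the 32, in 10 of the 25 (40.0%) and in 37 of the 27025 (0.137%). The lists were made up of known genes of these 2 responses, whatever their change here, so the shares describe the lists and not these livers. A match is a description of these letters, and the 2 motifs did not occur together in the promoters shown. Shown, with the matched letters in capitals, are the 250 bases before the start of 4 genes, to give the place of the element in 2 risen and 2 fallen genes. They are the 2 genes of smallest p in each list whose window held its element: Fgf21, chr7:45615491-45615740 on the minus strand, Atf3, chr1:191183334-191183583 on the minus strand, Pdia6, chr12:17266339-17266588 on the plus strand, and Syvn1, chr19:6046326-6046575 on the plus strand.
Fgf21: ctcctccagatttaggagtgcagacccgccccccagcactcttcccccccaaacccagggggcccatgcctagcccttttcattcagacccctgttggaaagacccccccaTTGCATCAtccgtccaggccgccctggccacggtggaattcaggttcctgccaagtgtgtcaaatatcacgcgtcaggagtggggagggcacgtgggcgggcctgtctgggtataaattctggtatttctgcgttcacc
Atf3: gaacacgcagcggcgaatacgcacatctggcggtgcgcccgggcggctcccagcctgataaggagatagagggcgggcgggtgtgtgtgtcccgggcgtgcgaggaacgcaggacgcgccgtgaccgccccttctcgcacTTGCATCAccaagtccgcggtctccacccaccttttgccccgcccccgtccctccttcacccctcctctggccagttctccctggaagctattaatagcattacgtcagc
Pdia6: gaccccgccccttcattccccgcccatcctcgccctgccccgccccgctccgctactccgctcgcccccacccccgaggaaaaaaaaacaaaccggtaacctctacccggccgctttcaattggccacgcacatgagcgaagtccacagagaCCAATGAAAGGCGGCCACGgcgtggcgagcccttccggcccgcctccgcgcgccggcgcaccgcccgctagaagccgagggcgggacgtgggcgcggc
Syvn1: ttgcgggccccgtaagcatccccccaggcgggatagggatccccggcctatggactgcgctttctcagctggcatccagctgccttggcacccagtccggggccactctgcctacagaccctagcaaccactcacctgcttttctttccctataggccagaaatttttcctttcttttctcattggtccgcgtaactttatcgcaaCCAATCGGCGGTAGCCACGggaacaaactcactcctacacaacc

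Fgf21, a hormone of fasting and amino acid shortage whose promoter has the element 139 bases before its start, had 15.2, 13.8 and 15.1 CPM in MCD DTMB livers and 7.37, 11.9, 10.6 and 4.05 CPM in MCD vehicle livers, against 0.0925, 0, 0.0775 and 0.194 CPM in normal-diet livers. The MCD DTMB livers lay above the MCD vehicle livers as well as the normal-diet livers. The log2 fold change was 7.295 ± 0.52 (SE, edgeR adjusted p = 2.96e-06) against normal diet, and 0.79 ± 0.37 (SE, edgeR adjusted p = 0.919) against MCD vehicle, which the direct test did not call. Atf3, a stress-induced transcription factor, had 19.5, 15.6 and 19.4 CPM in MCD DTMB livers and 9.88, 35.01, 20.6 and 18.1 CPM in MCD vehicle livers, against 1.42, 0.948, 0.736 and 0.863 CPM in normal-diet livers, a rise of 4.19 ± 0.37 (SE, edgeR adjusted p = 1.25e-05) with the MCD DTMB and MCD vehicle ranges overlapping. Psat1, of serine synthesis, rose by 4.91 ± 0.34 and Pycr1, of proline synthesis, by 3.19 ± 0.33. Tars, a tRNA ligase that also holds the element, was a member that fell (-1.12 ± 0.16).

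Sdf2l1, an ER chaperone subunit, had 7.17, 6.19 and 6.41 CPM in MCD DTMB livers and 7.11, 9.91, 10.4 and 20.7 CPM in MCD vehicle livers, against 59.7, 35.1, 84.6 and 44.5 CPM in normal-diet livers, and fell by 3.09 ± 0.39 (SE, edgeR adjusted p = 0.000126) on the log2 scale. Syvn1, the ubiquitin ligase that removes misfolded ER proteins, had 37.6, 34.7 and 29.5 CPM in MCD DTMB livers and 39.5, 31.1, 42.4 and 77.6 CPM in MCD vehicle livers, against 165, 105, 199 and 109.7 CPM in normal-diet livers, and fell by 2.09 ± 0.32 (SE, edgeR adjusted p = 0.000468). Each MCD DTMB library was below each normal-diet library for both genes. Pdia6, a disulfide isomerase, fell by 1.004 ± 0.16, and P4hb, another disulfide isomerase that also serves prolyl hydroxylase and triglyceride transfer protein, rose by 0.93 ± 0.13. NRF2 and antioxidant genes had 12 of 38 higher and 9 lower, and by library size alone 19 rose and 5 fell. The quinone reductase Nqo1 rose by 1.47 ± 0.16 and sulfiredoxin Srxn1 by 1.89 ± 0.21, while the glutathione transferase Gstp1, of male-typical level, fell (-2.05 ± 0.16), as did Gstm6 (-1.51 ± 0.13). Immediate-early genes, which stress and tissue handling both raise, had 6 of 17 higher, with Ier3 at 3.23 ± 0.403, Jun at 1.74 ± 0.36 and Klf6 at 1.77 ± 0.38.

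Of 38 proliferation genes 7 rose and 1 fell (median 0.86), close to the 16.2% of all genes that rose. Ccnd1, the cyclin that opens the cell cycle, had 443, 354 and 369 CPM in MCD DTMB livers and 145, 348, 368 and 341 CPM in MCD vehicle livers, against 44.8, 32.7, 39.3 and 29.1 CPM in normal-diet livers. All MCD DTMB livers stood together above the normal-diet livers, with a log2 fold change of 3.41 ± 0.28 (SE, edgeR adjusted p = 7.01e-06). Ccne1, the next cyclin, rose by 2.03 ± 0.26 and Mcm2, of the replication helicase, by 1.78 ± 0.34, while thymidine kinase Tk1 fell by 0.96 ± 0.14. The mitotic marker Mki67, a defining gene of division named apart from the rule, had 7.54, 3.66 and 1.34 CPM in MCD DTMB livers and 1.94, 17.9, 6.07 and 2.28 CPM in MCD vehicle livers, against 2.904, 3.81, 0.949 and 1.45 CPM in normal-diet livers, a log2 fold change of 0.87 ± 0.78 (SE, edgeR adjusted p = 0.423). Mitochondrially encoded genes had 0 of 13 higher and 5 lower. DESeq2 gave 8 lower, the fits without MCD DTMB replicate 2 or 3 gave 3 each, and library size alone gave 1. Of the 13, 11 were lower in MCD vehicle livers. ND4L, a subunit of complex I, had 570.3, 581 and 573 CPM in MCD DTMB livers and 497, 559, 509 and 537 CPM in MCD vehicle livers, against 991, 1174, 879.7 and 810.0 CPM in normal-diet livers and fell by 0.75 ± 0.13 (SE, edgeR adjusted p = 0.00132) on the log2 scale.

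Macrophage markers of the steatohepatitis state were present in MCD DTMB livers. Of 27 markers of monocytes and lipid-associated macrophages, 20 rose and 1 fell, with a median of 2.08, and in MCD vehicle livers 23 were higher and 0 lower, with a median of 2.76. The median of the direct difference, MCD DTMB minus MCD vehicle, was -0.81 with no member called. The list summed to 2993, 2242 and 2563 CPM in MCD DTMB livers, 2825 to 4373 CPM in MCD vehicle livers and 1029 to 1352 CPM in normal-diet livers. Cd36 and Lpl of this list are also made by hepatocytes or other liver cells.

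Gpnmb (gene ID 93695, chromosome 6, 49036518 to 49058182), a membrane glycoprotein of lipid-laden macrophages, had 124, 43.04 and 34.02 CPM in MCD DTMB livers and 136, 347, 197 and 146 CPM in MCD vehicle livers, against 0.851, 0.293, 0 and 0.0647 CPM in normal-diet livers. Trem2, their lipid receptor, had 8.72, 4.53 and 4.63 CPM in MCD DTMB livers and 8.18, 18.5, 9.95 and 8.32 CPM in MCD vehicle livers, against 0.518, 0.0451, 0.213 and 0.173 CPM in normal-diet livers. Mmp12, the macrophage elastase, had 95.1, 32.4 and 31.01 CPM in MCD DTMB livers and 46.5, 187, 99.9 and 61.7 CPM in MCD vehicle livers, against 1.42, 0.158, 0.116 and 0.108 CPM in normal-diet livers. MCD DTMB replicate 1 was the highest of its group for all of them, and no MCD DTMB library overlapped the normal-diet range. For Gpnmb the MCD DTMB livers also lay below each MCD vehicle liver, while for Trem2 and Mmp12 those ranges overlapped. Against normal diet the log2 fold changes were 7.74 ± 0.799 (SE, edgeR adjusted p = 3.42e-05), 4.597 ± 0.53 (SE, edgeR adjusted p = 6.87e-05) and 6.803 ± 0.83 (SE, edgeR adjusted p = 0.000113) in that order. Against MCD vehicle they were -1.62 ± 0.61 (SE, edgeR adjusted p = 0.919), -0.92 ± 0.44 (SE, edgeR adjusted p = 0.919) and -0.904 ± 0.65 (SE, edgeR adjusted p = 0.924), none of them called. Galectin-3 (Lgals3) rose by 3.67 ± 0.44 against normal diet. Fabp5, a fatty acid-binding protein, was the member that fell, with 16.2, 11.95 and 10.3 CPM in MCD DTMB livers and 23.1, 39.4, 23.7 and 20.6 CPM in MCD vehicle livers, against 37.4, 70.4, 19.04 and 25.6 CPM in normal-diet livers and a log2 fold change of -1.57 ± 0.401 (SE, edgeR adjusted p = 0.0108).

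Of 19 Kupffer and general macrophage markers 5 rose and 0 fell, against 8 and 0 in MCD vehicle livers. Without normal-diet replicate 2, the library of highest Kupffer sum in its group, 14 rose, and by library size alone 9. The list summed to 670.1 to 919.7 CPM in MCD DTMB livers, 556 to 1214 CPM in MCD vehicle livers and 348 to 833 CPM in normal-diet livers. Clec4f, a lectin particular to resident Kupffer cells and a defining marker, had 62.1, 61.95 and 59.7 CPM in MCD DTMB livers and 24.1, 69.2, 63.9 and 42.8 CPM in MCD vehicle livers, against 29.6, 118, 43.7 and 43.7 CPM in normal-diet livers, and the log2 fold change of 0.059 ± 0.43 (SE, edgeR adjusted p = 0.933) was not called. Mertk, a receptor for dying cells, rose by 1.46 ± 0.19, the endotoxin co-receptor Cd14 by 2.31 ± 0.502, and the lysosomal protein Cd68 by 1.79 ± 0.42. Slc40a1, the iron exporter, rose by 0.53 ± 0.11. Of 15 neutrophil markers 9 passed the count filter, of which 6 rose, 2 with the filter of CPM above 1, and 3 without MCD DTMB replicate 1 or replicate 2. Lcn2 (lipocalin 2), the most abundant of them and an acute phase gene of hepatocytes as well, had 363, 219 and 109.7 CPM in MCD DTMB livers and 128, 478, 282 and 168 CPM in MCD vehicle livers, against 6.38, 6.93, 1.704 and 2.48 CPM in normal-diet livers, a log2 fold change of 5.72 ± 0.64 (SE, edgeR adjusted p = 5.62e-05). S100a9, a calprotectin subunit of neutrophils, was at 1.64 ± 0.663 CPM (SD, n = 3) in MCD DTMB livers, against 0.281 ± 0.144 CPM (SD, n = 4) in normal-diet livers.

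Among genes of signals that call, activate or restrain leukocytes, more rose than fell. The summed level of the chemokine and cytokine list was not raised. It was 359 to 450 CPM in MCD DTMB livers, 344 to 451 CPM in MCD vehicle livers and 348 to 460 CPM in normal-diet livers. Of 31 tested chemokine, cytokine and receptor genes of 36, 14 rose and 2 fell (median 1.44), or 8 rose without MCD DTMB replicate 1. The falls numbered 0 by library size alone and 1 with the replicate block or without MCD DTMB replicate 2, MCD DTMB replicate 3 or normal-diet replicate 2. In MCD vehicle livers 17 were higher and 2 lower (median 1.51). Il1rn, the interleukin-1 receptor antagonist, had 32.2, 15.4 and 22.9 CPM in MCD DTMB livers and 22.6, 42.6, 16.5 and 9.15 CPM in MCD vehicle livers, against 2.18, 3.14, 0.717 and 1.36 CPM in normal-diet livers. It rose by 3.67 ± 0.54 (SE, edgeR adjusted p = 0.000373). Ccl2, the monocyte chemokine, had 4.101, 1.93 and 2.08 CPM in MCD DTMB livers and 1.48, 2.83, 3.35 and 2.29 CPM in MCD vehicle livers, against 0.629, 0.361, 0.213 and 0.216 CPM in normal-diet livers. Ccl2 rose by 2.91 ± 0.43 (SE, edgeR adjusted p = 0.000406). In both genes the MCD DTMB livers stood above all normal-diet livers and across the MCD vehicle range. Cxcl10, a T cell chemokine, rose by 1.88 ± 0.397 and the receptor Ccr1 by 4.05 ± 0.73, while Il18, made by hepatocytes and Kupffer cells, fell by 0.74 ± 0.17 on the log2 scale, a call that library size alone did not make. Of 34 Toll-like receptor and NF-kB genes 10 rose and 3 fell (median 0.67), with 6 higher without MCD DTMB replicate 1 and 17 by library size alone. The falls numbered 0 by library size alone or without MCD DTMB replicate 2, and 1 without replicate 3. In MCD vehicle livers 17 were higher (median 1.07). Vcam1, an adhesion molecule for leukocytes, had 36.5, 26.7 and 29.6 CPM in MCD DTMB livers and 20.3, 75.1, 33.2 and 25.4 CPM in MCD vehicle livers, against 8.69, 5.28, 4.42 and 5.27 CPM in normal-diet livers. It rose by 2.39 ± 0.39 (SE, edgeR adjusted p = 0.00082). The feedback inhibitor Tnfaip3 rose by 2.02 ± 0.26 and Icam1, another adhesion molecule, by 1.31 ± 0.21.

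Few interferon-stimulated genes were called: 2 of 39 rose and 1 fell, below the shares of all genes, with a median of 0.017. Over the alternatives 1 to 6 rose and 1 to 6 fell, with 6 rising without normal-diet replicate 2, 4 by library size alone, and 6 falling without MCD DTMB replicate 1. The antiviral membrane protein gene Bst2 fell by 1.44 ± 0.18 on the log2 scale and Gbp2, a guanylate-binding protein, rose by 1.46 ± 0.26. Antigen presentation genes had 7 of 21 higher and 3 lower, with 0 lower by library size alone, 1 without MCD DTMB replicate 2 or 3, and 5 by DESeq2. Those named that rose were of MHC class II, carried by macrophages, dendritic cells and B cells: H2-Ab1 had 41.2, 25.4 and 29.02 CPM in MCD DTMB livers and 38.9, 44.1, 44.9 and 33.1 CPM in MCD vehicle livers, against 19.8, 11.6, 15.6 and 13.6 CPM in normal-diet livers. It rose by 1.07 ± 0.199 (SE, edgeR adjusted p = 0.00181), H2-Eb1 by 1.19 ± 0.21, H2-Aa by 1.11 ± 0.22 and the peptide editor H2-DMb1 by 1.52 ± 0.24. B2m, the light chain of MHC class I, fell by 0.72 ± 0.18 on the log2 scale, though not by library size alone. Lymphocyte markers were sparse. Of 20 tested T and NK cell genes 3 rose, near the 16.2% of all genes, and 1 fell, below the 16.4% of all genes. Il7r, a cytokine receptor of T and innate lymphoid cells, was at 3.44 ± 0.68 and Cd4, which some macrophages also carry, at -1.58 ± 0.39. The rises numbered 10 by library size alone, 7 without normal-diet replicate 2, and 1 with the replicate block, without MCD DTMB replicate 1 or without normal-diet replicate 3. Of 13 tested B and plasma cell genes 0 rose and 4 fell, 2 by library size alone or without MCD DTMB replicate 2 and 1 without replicate 3. Ighm, the IgM heavy chain, had 1.61, 1.46 and 1.41 CPM in MCD DTMB livers and 5.01, 2.92, 1.85 and 1.92 CPM in MCD vehicle livers, against 2.61, 5.21, 3.97 and 6.39 CPM in normal-diet livers, a log2 fold change of -1.604 ± 0.38 (SE, edgeR adjusted p = 0.00781).

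Fibrosis genes were nearer to normal diet in MCD DTMB livers than in MCD vehicle livers by their medians, without a called difference between those groups. Of 37 matrix genes 6 rose and 4 fell in MCD DTMB livers (median 0.076), near the shares of all genes. In MCD vehicle livers 15 were higher and 4 lower (median 0.79). The matrix list summed to a mean of 2591 CPM in MCD DTMB livers, 2851.5 CPM in MCD vehicle livers and 2962.5 CPM in normal-diet livers. By this sum MCD vehicle livers were the nearer to normal diet, and neither MCD group was above it. Sums of the matrix-remodelling genes, with means of 340.1, 456 and 233 CPM in that order, were nearer to normal diet with DTMB by the mean only. They were 405, 302 and 313 CPM in MCD DTMB livers and 368.5, 646, 424 and 386 CPM in MCD vehicle livers. These ranges overlapped, and MCD vehicle replicate 2 was far above the rest of its group. The direct difference, MCD DTMB minus MCD vehicle, had a median of -0.601 over the matrix list, -0.64 over 30 matrix-remodelling genes and -0.37 over 18 stellate markers, against 0.017 over all genes tested, and no member of these lists was called. The count of risen matrix genes was 3 without MCD DTMB replicate 1 and 3 each without normal-diet replicates 2 or 4, and the fallen ones were 2 without MCD DTMB replicates 2 or 3 and 1 by library size alone. The fibrillar collagens, defining products of activated stellate cells, were not called. Col1a1 had 12.99, 6.96 and 3.99 CPM in MCD DTMB livers and 10.3, 30.9, 15.8 and 9.49 CPM in MCD vehicle livers, against 20.2, 2.37, 4.997 and 6.09 CPM in normal-diet livers, and Col3a1 42.6, 25.2 and 16.1 CPM in MCD DTMB livers and 23.7, 105, 51.2 and 28.4 CPM in MCD vehicle livers, against 63.4, 9.52, 24.9 and 27.2 CPM in normal-diet livers. Both had overlapping ranges in all pairs of groups, with the highest values in MCD vehicle replicate 2 and, among normal-diet livers, in replicate 1. The log2 fold change from normal diet was -0.082 ± 0.65 (SE, edgeR adjusted p = 0.939) for Col1a1 and -0.16 ± 0.61 (SE, edgeR adjusted p = 0.865) for Col3a1, and the difference from MCD vehicle was -1.06 ± 0.66 (SE, edgeR adjusted p = 0.923) and -0.896 ± 0.62 (SE, edgeR adjusted p = 0.923).

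Of the matrix genes that rose, the small proteoglycan Lum had 17.4, 11.2 and 13.5 CPM in MCD DTMB livers and 15.04, 28.5, 15.3 and 10.3 CPM in MCD vehicle livers, against 7.16, 4.04, 6.49 and 6.17 CPM in normal-diet livers, and its relative Dcn had 199, 217 and 212 CPM in MCD DTMB livers and 241, 343, 221 and 263 CPM in MCD vehicle livers, against 157, 88.8, 124 and 131 CPM in normal-diet livers. Both genes were above normal diet in each MCD DTMB liver, and for Dcn also below each MCD vehicle liver. The log2 fold changes from normal diet were 1.23 ± 0.31 (SE, edgeR adjusted p = 0.00943) and 0.74 ± 0.19 (SE, edgeR adjusted p = 0.00968), and the direct difference in Dcn was -0.35 ± 0.19 (SE, edgeR adjusted p = 0.923). Col27a1, a cartilage-type fibrillar collagen, fell by 1.63 ± 0.28 on the log2 scale, and Col18a1, a basement membrane collagen that hepatocytes make, fell by 0.59 ± 0.15, the second not called by library size alone.

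Matrix-remodelling genes had 13 of 30 higher and 0 lower in MCD DTMB livers (median 0.54), 8 without MCD DTMB replicate 1, and 21 and 3 in MCD vehicle livers (median 1.26). The collagenase Mmp13 rose by 4.17 ± 0.72 and the urokinase receptor Plaur by 3.17 ± 0.58. Of the stellate markers 5 rose and 0 fell (median 0.44), 8 by library size alone or without normal-diet replicate 1, against 9 and 0 in MCD vehicle livers (median 0.81). The list summed to 329.9 to 343 CPM in MCD DTMB livers, 340.3 to 526 CPM in MCD vehicle livers and 185 to 372 CPM in normal-diet livers. Pdgfra, a growth factor receptor of stellate cells and fibroblasts, had 12.2, 11.5 and 10.1 CPM in MCD DTMB livers and 17.6, 20.3, 13.9 and 13.5 CPM in MCD vehicle livers, against 5.47, 2.89, 4.44 and 4.100 CPM in normal-diet livers. Its MCD DTMB values lay between those of the other groups without overlap. The log2 fold change was 1.42 ± 0.21 (SE, edgeR adjusted p = 0.000344) from normal diet and -0.53 ± 0.205 (SE, edgeR adjusted p = 0.919) from MCD vehicle. Lrat, which esterifies vitamin A in quiescent stellate cells, rose by 1.05 ± 0.23, and the transcription factor Hand2 by 0.78 ± 0.197. The muscle actin Acta2, the defining marker of activation, had 1.81, 2.93 and 1.95 CPM in MCD DTMB livers and 4.06, 5.92, 5.59 and 1.87 CPM in MCD vehicle livers, against 8.04, 1.17, 3.08 and 4.705 CPM in normal-diet livers, and its log2 fold change of -0.93 ± 0.54 (SE, edgeR adjusted p = 0.21) was not called.

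**Figure D3:**
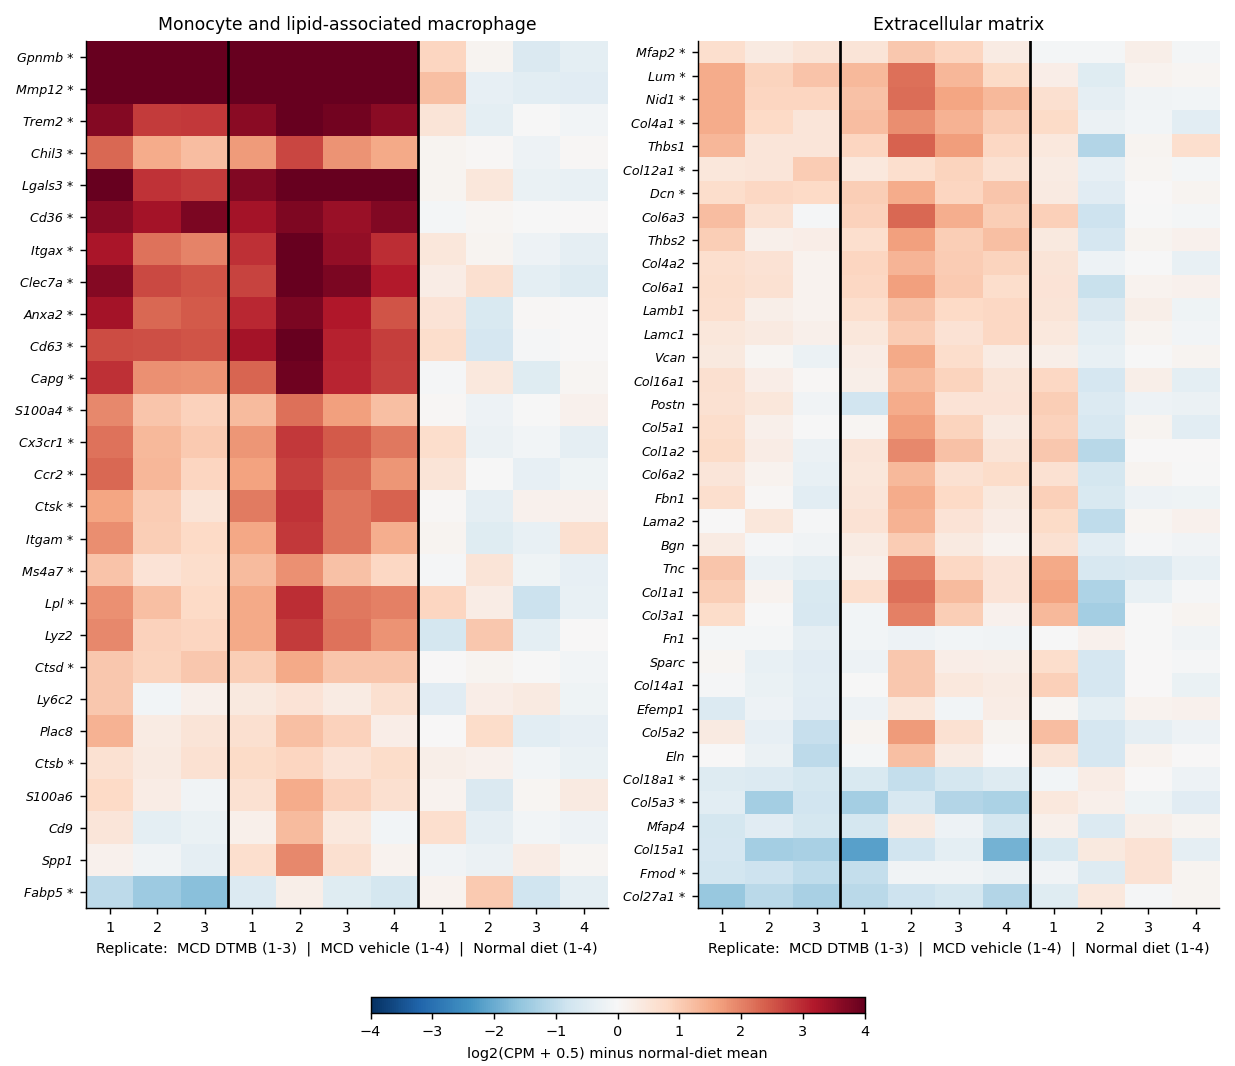
Tested members of the monocyte and lipid-associated macrophage list (left, 27 genes) and of the matrix list (right, 37 genes) in each library, coloured by log2(CPM + 0.5) minus the mean of the normal-diet livers and clipped at -4 and 4; columns are MCD DTMB, MCD vehicle and normal-diet replicates, and an asterisk marks an edgeR adjusted p under 0.05 for MCD DTMB against normal diet (20 members higher and 1 lower on the left, 6 and 4 on the right). MCD DTMB replicate 1 and MCD vehicle replicate 2 are the reddest columns of their groups.

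Markers of endothelial and bile duct cells gave few calls. Of 18 endothelial markers 2 rose and 2 fell, below the 16.2% and 16.4% of all genes, and by library size alone 5 rose and 0 fell. Without any 1 of the MCD DTMB libraries or normal-diet replicate 4, and with the replicate block, 1 rose. Rspo3, a Wnt amplifier of central vein endothelium, rose by 0.76 ± 0.13, while the sinusoidal nuclease gene Dnase1l3 fell by 0.56 ± 0.14 on the log2 scale, though not by library size alone. The list summed to 194 to 243 CPM in MCD DTMB livers, 239.5 to 285 CPM in MCD vehicle livers and 202 to 263 CPM in normal-diet livers. Of 17 tested cholangiocyte and ductular genes 4 rose and 1 fell, with 2 higher under the filter of CPM above 1, and 0 lower by library size alone or without any 1 of the MCD DTMB libraries or normal-diet replicates 1 or 3. Krt23, a keratin of stressed hepatocytes and bile duct cells, had 19.97, 14.3 and 25.2 CPM in MCD DTMB livers and 14.6, 33.5, 11.02 and 6.27 CPM in MCD vehicle livers, against 3.05, 1.26, 1.22 and 1.17 CPM in normal-diet livers. It rose by 3.55 ± 0.53 (SE, edgeR adjusted p = 0.000406). Krt8, a keratin of hepatocytes as well, rose by 0.91 ± 0.18. Erythroid genes, which mark red blood cells in the tissue, had 5 of 5 tested members lower and 0 higher, summing to 137 to 183 CPM in MCD DTMB livers, 146 to 343 CPM in MCD vehicle livers and 381 to 569 CPM in normal-diet livers. Pancreatic acinar genes summed to 7.43 to 10.9 CPM in MCD DTMB livers, against 573 CPM in normal-diet replicate 4 and 10.8 to 25.2 CPM in the other normal-diet livers. Their 5 lower calls of 9 tested ranged from 0 to 10 over the alternatives. They were 1 without normal-diet replicate 4 or by DESeq2, 0 without MCD DTMB replicate 1 or 2, and 10, of a larger number then tested, without normal-diet replicate 1 or 2.

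The change of MCD DTMB livers from their normal-diet livers was then compared with that of HFD DTMB livers from theirs, in one fit of all 22 libraries on a common CPM scale. Of 16541 genes tested, 5596 differed (33.8%), 2634 with a higher value in the MCD cohort (15.9%) and 2962 with a lower one (17.9%), and by library size alone 5160 and 1560. The cohorts differ in diet and in their normal-diet animals, and DTMB was given in both, so the diet and the response to DTMB on it cannot be told apart by this contrast alone. Tlcd2, a membrane lipid gene, had 7.62, 8.501 and 8.98 CPM in MCD DTMB livers, against 67.3, 130.1, 118 and 117 CPM in normal-diet livers of that cohort, and 102, 106, 114 and 111 CPM in HFD DTMB livers, against 24.9, 39.1 and 37.7 CPM in normal-diet livers of the HFD cohort. The change was down in the MCD cohort (-3.69 ± 0.22) and up in the HFD cohort (1.67 ± 0.198), a difference of -5.36 ± 0.29 (SE, edgeR adjusted p = 8.26e-10), and the 2 normal-diet groups themselves lay apart. Nat8f1, an acetyltransferase family gene, had 42.02, 43.8 and 54.2 CPM in MCD DTMB livers, against 138, 159, 141 and 144 CPM in normal-diet livers of that cohort, and 77.9, 83.97, 99.00 and 79.8 CPM in HFD DTMB livers, against 26.8, 34.9 and 32.8 CPM in normal-diet livers of the HFD cohort. Its changes were likewise of opposite sign, -1.64 ± 0.13 and 1.44 ± 0.13, with a difference of -3.08 ± 0.19 (SE, edgeR adjusted p = 1.21e-09) and normal-diet groups that did not overlap between cohorts. Mup3, Scnn1a (an epithelial sodium channel subunit), Zcchc24 and Lrit1 fell in the MCD cohort, and their HFD DTMB changes were not called. The difference was -6.48 ± 0.36 (SE, edgeR adjusted p = 8.26e-10) for Mup3, with -6.18 ± 0.30 in the MCD cohort and 0.30 ± 0.23 in the HFD cohort. For Scnn1a, whose normal-diet groups did not overlap either, it was -4.93 ± 0.29 (SE, edgeR adjusted p = 8.26e-10), for Zcchc24 -2.82 ± 0.16 (SE, edgeR adjusted p = 8.26e-10) and for Lrit1 -6.26 ± 0.38 (SE, edgeR adjusted p = 1.21e-09), with HFD changes of 0.17 ± 0.18, 0.25 ± 0.11 and 0.052 ± 0.22. Mean Tlcd2 levels, DTMB then vehicle, were 8.37 and 8.23 CPM on MCD and 108 and 103 CPM on HFD. Those of Nat8f1 were 46.7 and 43.1 CPM on MCD and 85.2 and 73.6 CPM on HFD. Those of Mup3 were 120.6 and 116.7 CPM on MCD and 9256.5 and 5874 CPM on HFD. HFD DTMB and HFD vehicle livers were not tested against each other.

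**Figure D4:**
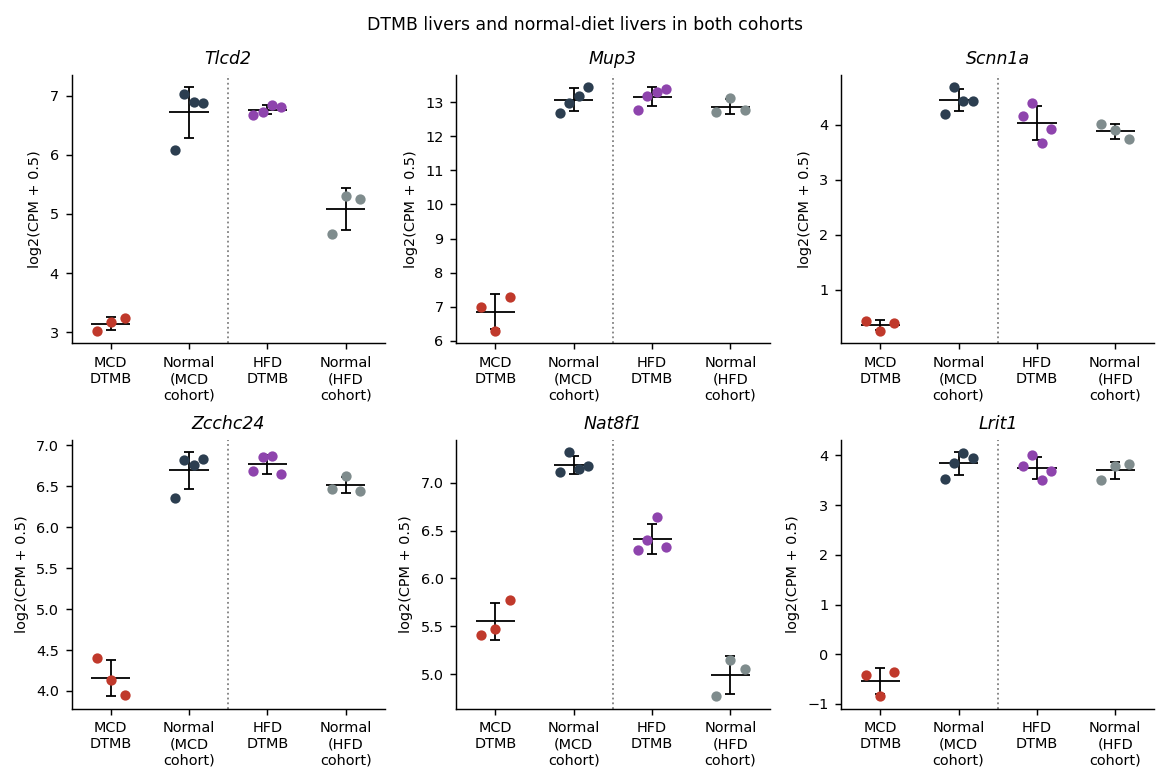
The 6 genes of smallest p for a difference between cohorts in the change of DTMB livers from normal diet, as log2(CPM + 0.5) on the scale of the fit of all 22 libraries; points are libraries, bars the mean and whiskers the SD, with MCD DTMB (n = 3) and normal diet (n = 4) left of the dotted line and HFD DTMB (n = 4) and normal diet (n = 3) right of it. The MCD DTMB points are the lowest on the left side of each panel, and the 2 normal-diet groups do not overlap for Tlcd2, Nat8f1 and Scnn1a.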

How the data were processed

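RNA of whole mouse livers was sequenced in 22 libraries, and the authors deposited raw counts per gene, 1 table per cohort. The submitters' processing notes name HISAT2 2.1.0, StringTie 2.1.3b, Trimmomatic 0.38, FastQC 0.11.7 and the genome mm10, without roles. No source used here gives the counting tool, its strand setting or its treatment of reads that fit several genes, so near-identical copies and overlapping genes are uncertain. The tables list 45777 genes, of which 45679 matched RefSeq gene IDs, used for positions (GRCm38.p6). Of all genes, 21535 had no count in the MCD cohort.

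Deposited counts were analysed with edgeR 4.0.16 (R 4.3.3, limma 3.58.1): filterByExpr, TMM factors, the quasi-likelihood F test and Benjamini-Hochberg adjustment over all genes tested, called under 0.05. The 3 MCD-cohort groups were fitted together, and the contrast between cohorts used all 22 libraries. The SE is the fold change divided by the root of F. DESeq2 1.42.0 was an alternative. Folds against a group at 0 use a summed floor of 3 counts, a bound that covers counting error only. Plots use matplotlib 3.10.9 with a pseudocount of 0.5. Replicates are labelled as biological, but nothing says how animals were housed or processed. The p-values set group differences against the spread between these samples, and cannot show whether housing or processing differed between groups. Same-group libraries correlated at 0.978 to 0.993, and none was a duplicate of another (lowest chi-square per degree of freedom 57.2).

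In simulated data for MCD DTMB against normal diet (15649 genes fitted), 67, 68 and 60 genes were changed by 1.5-fold, 2-fold and 4-fold. The test recovered 4.48%, 44.1% and 68.3% of these changes with 3 false calls. For MCD DTMB against MCD vehicle (15734 genes fitted) it recovered 5.56%, 44.8% and 83.9% with 5 false calls. Genes named are the 8 largest rises and falls among called genes whose groups do not overlap, the 4 largest rises and falls in mean CPM, up to 4 members of smallest p per list with the strongest against its trend, the 6 of smallest p between cohorts, and defining markers. Genes that the text says were added, and the few genes left out of a rule for space, were chosen with values known. The comparison and the gene lists were chosen with earlier results of these data known. The HFD vehicle libraries entered the joint fit, and beyond it only their mean levels of Tlcd2, Nat8f1 and Mup3 are given. A few genes that the rule would name are not reported here.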

Additional observations from a re-analysis of the deposited data

Results flagged for a closer look

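The change from normal diet differed between MCD DTMB and HFD DTMB livers for the 6 genes of smallest p, by the edgeR test of the difference itself. MCD-cohort minus HFD-cohort change, on the log2 scale, it was -5.36 for Tlcd2, -6.48 for Mup3, -4.93 for Scnn1a, -2.82 for Zcchc24, -3.08 for Nat8f1 and -6.26 for Lrit1. Diet, cohort and the response to DTMB on each diet cannot be told apart in this contrast.

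Of 302 groups of 4 libraries checked over 148 genes, 23 had 1 library standing apart, by the gap to its nearest neighbour as a share of the group's range. With normally distributed values, chance would flag about 1 group in 20 by this measure. CPM was used without a log, and most flagged libraries were the highest of their group, so that rate need not hold here. Among MCD vehicle livers, replicate 4 was the high one for Alb (share 0.834, with 82401 CPM, against 55514 to 59988 CPM in the others), Apoc1 (0.889), Arntl (0.838), C8b (0.842), Ccne1 (0.856), Cyp2b13 (0.846), Cyp2c54 (0.887) and Hamp2 (0.855, with 242 CPM, against 72.4 to 97.1 CPM). Replicate 2 was high for Fabp5 (0.832), Trem2 (0.8291) and Jun (0.88, with 63.5 CPM, against 17.9 to 23.3 CPM), and replicate 1 was low for Ccnd1 (0.88).

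Among normal-diet livers, replicate 2 was high for the macrophage genes Cd14 (0.9175), Cd68 (0.8535, with 9.93 CPM, against 3.35 to 4.31 CPM) and Clec4f (0.841), and for B2m (0.92) and Gbp2 (0.976). Replicate 1 was high for Cyp2a4 (0.837), Fads1 (0.957), Krt23 (0.948) and Mmp12 (0.962), and low for Cyp27a1 (0.85). Replicate 4 was high for Ccne1 (0.937). MCD DTMB had 3 libraries and was not checked in this way.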

How the results depend on the processing

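Alternatives were library size alone, RLE factors, DESeq2, 2 other filters on low counts, the groups compared alone, the replicate block and each library left out. MCD DTMB against normal diet gave 5230 called genes as reported, 6900 by library size alone, 5253 with RLE factors, 5817 by DESeq2 and 4413 with the replicate block, and 3761 to 5637 with a library left out, the lowest without MCD DTMB replicate 1. MCD DTMB against MCD vehicle gave 1, but 13 by DESeq2 and 0 with the CPM filter, with no filter, in the 2 groups alone, with the replicate block and with each library left out (0 to 0). MCD vehicle against normal diet gave 5600 to 6550 and the contrast between cohorts 4734 to 5923 with a library left out, and 6203 and 4885 with the block. The labels do not say whether replicate numbers pair the samples. Deviations of same-numbered libraries correlated at -0.393 to 0.118, which cannot show whether they were housed or processed together. Block results are therefore no measure of effect size. Of 210 named genes, 207 were called, and 171 of these kept their call in every alternative that could be fitted for them. Of 3750 gene values over 18 alternatives, 130 lost the call, 7 gained one and 1 reversed: Ndufa9, at -0.33 as reported, was 0.0317 by library size alone, whose median over all genes was 0.373. With 3 treated livers, most 1.5-fold changes in the simulated data were not called. Few genes were changed in those data, while 5230 were called against normal diet, so the recovered shares do not carry over to that comparison. Its calls included changes under 2-fold, such as that of Slc40a1 (log2 fold change 0.53).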

Other observations

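Iron and heme genes leaned upward in MCD DTMB livers. Of 22 tested 11 rose and 2 fell (median 0.41), and 6 rose without MCD DTMB replicate 3. The falls numbered 1 by library size alone, with no filter, with the replicate block, and without any 1 of the MCD DTMB libraries or normal-diet replicate 3. In MCD vehicle livers 8 were higher and 2 lower than in normal-diet livers (median 0.33). Id1, a target of the bone morphogenetic protein signals that set hepcidin, had 34.8, 39.4 and 17.2 CPM in MCD DTMB livers and 6.55, 13.8, 9.68 and 17.6 CPM in MCD vehicle livers, against 3.03, 2.39, 6.89 and 2.05 CPM in normal-diet livers. The MCD DTMB livers stood above all normal-diet livers, and replicates 1 and 2 also above the whole MCD vehicle range. The log2 fold change was 3.08 ± 0.45 (SE, edgeR adjusted p = 0.000376) from normal diet and 1.36 ± 0.43 (SE, edgeR adjusted p = 0.919) from MCD vehicle. Hamp2, a hepcidin paralog close in sequence to Hamp, rose by 3.02 ± 0.47 (SE, edgeR adjusted p = 0.000581), and Hmox1, which breaks heme open, by 1.93 ± 0.32 (SE, edgeR adjusted p = 0.000852). Tfr2, the iron sensor of hepatocytes, had 168, 213 and 152 CPM in MCD DTMB livers and 169, 146, 161 and 187 CPM in MCD vehicle livers, against 342, 347, 348 and 339 CPM in normal-diet livers, a log2 fold change of -0.95 ± 0.13 (SE, edgeR adjusted p = 0.000213).

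Of 27 glucose genes 7 rose (16.2% over all genes) and 4 fell (16.4% over all genes, so near that share), with a median of 0.055. By library size alone 13 rose and 2 fell, and without MCD DTMB replicate 2, 2 fell. Pygl, the liver glycogen phosphorylase, had 175, 153 and 198 CPM in MCD DTMB livers and 178, 145, 184 and 205 CPM in MCD vehicle livers, against 482, 639, 592 and 549.9 CPM in normal-diet livers, a log2 fold change of -1.69 ± 0.15 (SE, edgeR adjusted p = 1.32e-05). Gys2, the liver glycogen synthase, had 424, 333 and 333 CPM in MCD DTMB livers and 302, 387, 238 and 295 CPM in MCD vehicle livers, against 94.98, 147, 124 and 181 CPM in normal-diet livers, a log2 fold change of 1.41 ± 0.21 (SE, edgeR adjusted p = 0.000443). Lepr, the leptin receptor, had 36.9, 44.1 and 41.1 CPM in MCD DTMB livers and 48.2, 51.02, 60.7 and 17.3 CPM in MCD vehicle livers, against 8.01, 0.948, 2.07 and 2.396 CPM in normal-diet livers, a log2 fold change of 3.59 ± 0.58 (SE, edgeR adjusted p = 0.000728). All MCD DTMB livers were on the side of the MCD vehicle livers in all of these, with no overlap with normal diet. In the clock list 3 of 19 rose and 3 fell, near the 16.2% and 16.4% of all genes, and 9 rose and 1 fell by library size alone. The count of rises was 6 by DESeq2, 5 with the replicate block and 1 without MCD DTMB replicate 3. Arntl, the core activator of the clock, had 1.74, 2.09 and 0.923 CPM in MCD DTMB livers and 1.17, 1.37, 1.25 and 2.400 CPM in MCD vehicle livers, against 35.5, 9.72, 11.9 and 2.89 CPM in normal-diet livers, a log2 fold change of -3.24 ± 0.696 (SE, edgeR adjusted p = 0.00423). Its normal-diet values spread the widest of the groups. The sources used here do not give the hours of tissue collection, whose part in these values was not tested.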
